A study of Mus musculus with 4 samples.

Results

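The 1298 peaks described here are the places inside very long mouse genes where chromatin was precipitated with FLAG-tagged MIXL1. A peak was taken when its centre lay inside a protein-coding gene of 200 kb or longer and more than 1 kb from both ends of every protein-coding gene. Chromosomes 1 to 19 without chromosome 12 were used, with gene spans from the RefSeq table of GRCm38.p6 (mm10). The 1298 peaks were 16.7% of the 7791 peaks on these 18 autosomes and 13.5% of the 9598 peaks in all. The choice used the place of a peak and the length of its gene, and no measured value.

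Anti-FLAG M2 chromatin immunoprecipitation gave 2 libraries, and 2 input libraries served beside them. All 4 libraries came from mouse epiblast stem cells with an inducible Mixl1 gene, kept on irradiated fibroblast feeders with activin A at 20 ng/mL and bFGF at 10 ng/mL. The cells formed embryoid bodies in serum for 2 days, with 1 µg/mL doxycycline during the last 24 h. MIXL1 was thus an induced, tagged protein in both groups, and cells without doxycycline were not analysed here. One list of peak positions stands for the whole experiment, with no height, score or value per library. The depth is unknown, and every interval below covers the counting of peaks in this list and not the spread between cultures.

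MIXL1 is a paired-type homeodomain transcription factor of the primitive streak, where mesoderm and endoderm arise. Proteins of this type recognise a TAAT core, and pairs of them bind inverted TAAT cores that face each other across a short spacer. The longest mammalian genes owe their length mainly to introns, and many of them encode adhesion molecules, ion channels and developmental regulators.

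The only sequence view of these peaks came from transcript starts inside long genes, and it touched 25 of the 1298 peaks. RefSeq gives 300-base windows around transcript starts (250 bases before and 50 after). The windows used here covered 664 of the 900 long genes, so the others had no listed inner starts of their own. In 1235 windows the start lay inside a long gene, over 1 kb from any protein-coding gene end. A peak overlapped 27 of them (2.19%). Of these, 12 windows were inner starts of 11 long genes themselves, namely Celf2, Cntnap2, Creb5, Frmd4a, Kcnip1, Maml2, Nhsl1, Oprm1, Pakap, Rcan2 and Tcf12, out of 444 such windows (2.70%). The other 15 windows belonged to 14 long noncoding RNA genes. These genes are named because a peak overlapped the window, so they were picked after the positions were seen. The 6 inner starts of long genes that lay wholly within a peak are printed in the direction of transcription, from RefSeq GRCm38.p6, with every TAAT or its reverse complement ATTA in capitals.

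Cntnap2, neurexin-family adhesion protein, chr6:47244146-47244445, plus strand: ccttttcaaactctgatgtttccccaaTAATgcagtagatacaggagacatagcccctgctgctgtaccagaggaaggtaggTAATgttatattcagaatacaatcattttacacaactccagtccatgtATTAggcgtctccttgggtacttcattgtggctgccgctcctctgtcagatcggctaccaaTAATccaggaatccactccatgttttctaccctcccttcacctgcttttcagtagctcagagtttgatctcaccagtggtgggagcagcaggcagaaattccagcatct
Maml2, Mastermind-like coactivator of Notch, chr9:13297708-13298007, plus strand: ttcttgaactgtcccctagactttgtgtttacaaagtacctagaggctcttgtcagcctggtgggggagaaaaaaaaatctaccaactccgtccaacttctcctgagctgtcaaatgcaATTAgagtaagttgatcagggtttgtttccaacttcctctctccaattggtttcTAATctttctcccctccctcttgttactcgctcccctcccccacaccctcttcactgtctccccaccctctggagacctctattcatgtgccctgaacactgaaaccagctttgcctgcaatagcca
Nhsl1, regulator of the actin cytoskeleton, chr10:18469731-18470030, plus strand: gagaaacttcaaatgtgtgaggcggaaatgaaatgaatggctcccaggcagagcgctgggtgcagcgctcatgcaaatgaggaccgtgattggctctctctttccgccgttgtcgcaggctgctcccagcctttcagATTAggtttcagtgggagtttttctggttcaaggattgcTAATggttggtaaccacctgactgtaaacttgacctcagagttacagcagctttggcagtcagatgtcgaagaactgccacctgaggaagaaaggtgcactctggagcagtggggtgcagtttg
Pakap, anchor protein for protein kinase A, chr4:57844998-57845297, plus strand: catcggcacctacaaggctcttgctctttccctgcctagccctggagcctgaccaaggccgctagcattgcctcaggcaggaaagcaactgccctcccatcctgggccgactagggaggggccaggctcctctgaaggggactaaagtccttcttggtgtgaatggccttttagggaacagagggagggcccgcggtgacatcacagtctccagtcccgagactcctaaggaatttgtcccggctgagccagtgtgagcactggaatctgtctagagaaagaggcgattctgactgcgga
Rcan2, regulator of calcineurin, chr17:43952749-43953048, plus strand: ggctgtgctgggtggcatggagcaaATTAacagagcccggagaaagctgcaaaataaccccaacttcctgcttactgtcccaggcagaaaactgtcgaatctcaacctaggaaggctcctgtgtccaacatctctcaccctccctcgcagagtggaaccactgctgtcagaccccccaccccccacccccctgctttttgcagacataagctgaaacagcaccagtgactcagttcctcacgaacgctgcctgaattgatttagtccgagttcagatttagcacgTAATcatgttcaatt
Tcf12, basic helix-loop-helix E protein, chr9:71896047-71896346, minus strand: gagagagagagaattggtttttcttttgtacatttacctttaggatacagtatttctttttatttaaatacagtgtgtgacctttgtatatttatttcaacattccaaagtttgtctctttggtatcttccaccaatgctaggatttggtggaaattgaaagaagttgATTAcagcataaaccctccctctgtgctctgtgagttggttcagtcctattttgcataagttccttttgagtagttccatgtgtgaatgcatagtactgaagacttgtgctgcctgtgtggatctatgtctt

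The Cntnap2 window held 4 cores, the Maml2, Nhsl1 and Rcan2 windows 2 each, the Tcf12 window 1 and the Pakap window 0. These starts lay far from the first base of their genes in most cases. The distance from the 5′ end was 2184 kb in Cntnap2, 411 kb in Pakap, 216 kb in Tcf12, 152 kb in both Nhsl1 and Rcan2, and 1.40 kb in Maml2. The widest of the 6 peaks was the one over the Rcan2 start, at 1868 bp, and the narrowest was the one over the Pakap start, at 391 bp.

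Inverted cores with a spacer of 3 bases, TAAT then any 3 bases then ATTA, appeared in 2 of the 27 windows (7.41%), in 0.414% of the other 1208 windows inside long genes and in 0.487% of all 32851 windows. Both were starts of noncoding RNAs, one inside Glis1, a Krüppel-like zinc finger gene, and one inside Slit3, and in both the whole motif lay within the peak. The capitals again mark TAAT and ATTA.

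4930552P06Rik inside Glis1, chr4:107597306-107597605, minus strand: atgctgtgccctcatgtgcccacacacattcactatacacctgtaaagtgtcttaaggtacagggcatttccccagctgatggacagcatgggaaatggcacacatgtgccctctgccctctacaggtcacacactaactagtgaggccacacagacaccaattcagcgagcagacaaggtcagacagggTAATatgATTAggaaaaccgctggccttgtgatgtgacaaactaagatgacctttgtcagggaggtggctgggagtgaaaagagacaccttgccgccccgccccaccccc
Gm39705 inside Slit3, chr11:35544416-35544715, minus strand: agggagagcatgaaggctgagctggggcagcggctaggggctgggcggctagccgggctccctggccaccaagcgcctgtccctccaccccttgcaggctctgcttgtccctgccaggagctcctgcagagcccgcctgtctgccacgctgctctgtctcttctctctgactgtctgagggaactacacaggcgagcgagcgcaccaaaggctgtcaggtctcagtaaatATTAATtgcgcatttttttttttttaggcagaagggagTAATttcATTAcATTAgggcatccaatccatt

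The single core TAAT, which both strands can carry, was in 88.9% of the 27 windows, in 68.3% of the other 1208 and in 58.0% of all windows. Peaks covered some of these windows only in part, and 19 of the 27 (70.4%) held a core inside the peak itself. TAATTA was in 3.70%, 7.20% and 5.29%. The same inverted cores with spacers of 2 and of 4 bases were in 0 of the 27 windows, and in 0.745% each of the other 1208. TAAT is part of each longer motif, and TAATTA also contains ATTA. These shares describe few windows and carry no test. The windows that overlapped a peak had a median GC content of 51.7%, against 52.7% for all windows.

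Peaks were denser near listed transcript starts than in the rest of the long-gene interiors. For classes of territory, density is the number of peaks per Mb of interior, meaning the gene span without the stretches within 1 kb of any protein-coding gene end. For single genes and gene lists it is the number per Mb of the whole gene span. On the 17 chromosomes with entries, 33 peaks lay within 1 kb of a listed start of any gene, or 14.3 per Mb. Every listed start was used, also one near a gene end, but only interior territory and peaks were counted. Elsewhere in the interiors there were 3.38 per Mb, and starts with no window counted as elsewhere. The ratio was 4.24 (95% interval 2.91 to 5.99, adjusted p = 4.06e-11, two-sided exact binomial test). Listed starts of the long genes themselves gave 13 peaks, or 14.5 per Mb, against 3.42 per Mb elsewhere. That ratio was 4.25 (2.25 to 7.29, adjusted p = 2.08e-05, same exact test, adjusted over both). This pair of comparisons was chosen after the windows had been seen. Within 5 kb of a listed start the ratios were 1.88 and 1.63, both still past the threshold. At that reach, interior next to a start at the 5′ end of a gene also counted. The 5-kb ratios are thus not particular to inner starts. Peaks near starts were a small set, and on these chromosomes 1224 peaks lay more than 1 kb from any listed start.

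Long genes as hosts varied widely. Of the 900 protein-coding genes of 200 kb or longer, 505 held at least 1 peak (56.1%) and 395 held none. A single peak was found in 216 genes, 2 peaks in 121, 3 in 74, 4 in 38 and 5 or more in 56. Altogether 168 genes held 3 or more (18.7%). Among the 18982 shorter protein-coding genes 1606 held a peak in their interior (8.46%), a share that also reflects how little interior a short gene offers. Genes can overlap, and 7 peaks lay in more than 1 long gene, 4 of them in 2 genes and 3 in 3 to 10 genes. A noncoding gene also held 106 of the peaks (8.17%), beside 122 of the peaks inside shorter genes (5.70%). How much of each territory noncoding genes cover was not measured. The median distance of a peak to the nearest protein-coding gene end was 81.7 kb (quartiles 41.2 and 136 kb), and 521 peaks (40.1%) lay more than 100 kb away. Distances to a gene end below also use protein-coding genes only. At the threshold of the definition, 129 of 239 genes of 200 to 250 kb held a peak (53.97%), and 192 of 431 genes of 150 to 200 kb did (44.55%). Between 1 and 2 kb from a gene end there were 7 peaks, a count with no comparison.

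A pair of neighbouring genes on chromosome 17 stood far above the rest. Btbd9, which encodes a BTB-domain protein, spanned 367 kb at chr17:30215524-30582621 and held 65 peaks, or 177 per Mb of gene span. Dnah8, an axonemal dynein heavy chain gene, followed it at chr17:30626935-30875762 with 61 peaks in 249 kb, or 245 per Mb of gene span. Together they held 126 peaks, 9.71% of the whole set. In Btbd9 the peaks crowded towards the end that faces Dnah8, with 33 of them in a run of 65.6 kb and 23 in a run of 57.2 kb, where each peak lay within 10 kb of the next. Dnah8 held runs of 14, 14, 11, 9, 6 and 6 peaks. The median peak width was 583 bp in Btbd9 and 408 bp in Dnah8, against 480 bp for the whole set. Both genes also held some of the widest peaks of the set, of up to 2075 bp in Btbd9 and 2183 bp in Dnah8. Copy number of this stretch, the input signal over it and expression of its genes were not analysed here.

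**Figure D1:**
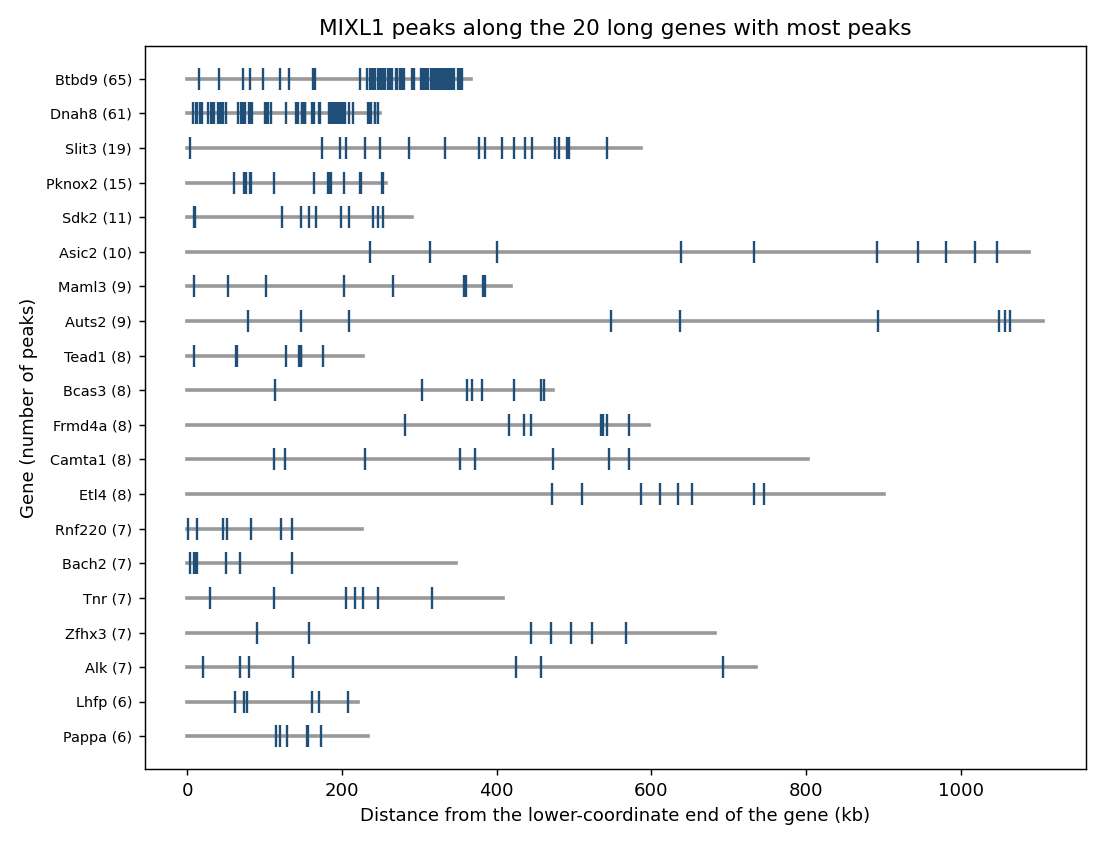
Positions of peaks along the 20 long genes with the most peaks, drawn to scale from the lower-coordinate end of each gene (kb). Grey lines are gene spans and blue ticks are peak centres, with the number of peaks in brackets. Btbd9 and Dnah8 carry 65 and 61 ticks, and the next gene, Slit3, carries 19.

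Slit3, which encodes a secreted guidance ligand of Robo receptors, came next with 19 peaks in 587 kb at chr11:35121456-35708507, or 32.4 per Mb of gene span. One of its peaks lay 3.80 kb from the 5′ end, and the next at 174 kb. From there the peaks were spread out to 542 kb, with widths of 251 to 1530 bp. One of them, 479 bp wide, lay 1.98 kb from the hairpin of Mir218-2, a microRNA gene inside Slit3. Among the Robo receptors, Robo1 held 5 peaks and Robo2 held 0 in 1555 kb, for which a count of 0 allows up to 1.93 peaks per Mb of gene span. Slit2, a second ligand, held 1.

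Pknox2, a homeodomain factor of the TALE class, held 15 peaks in 256 kb, or 58.5 per Mb of gene span, the highest such value after the chromosome 17 pair among genes with 3 or more peaks. Of these, 11 had another peak within 10 kb, and 4 lay in a run of 9.72 kb. Sdk2, an immunoglobulin-family adhesion gene, held 11 in 291 kb (37.8 per Mb of gene span), and a pair of them sat 281 and 282 kb from the 5′ end, close to the far end of the gene. Asic2, an acid-sensing ion channel gene, held 10, but over 1088 kb (9.19 per Mb of gene span), and none of them had another peak within 10 kb. The genes with many peaks thus included dense ones, such as Pknox2, and long ones with peaks far apart, such as Asic2.

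Several of the other genes with many peaks encode transcription factors or their cofactors. Maml3, a Mastermind-like coactivator of Notch, held 9 peaks in 418 kb, 4 of them with a neighbour within 10 kb. Auts2, a gene of neural development linked to Polycomb complexes, also held 9, in 1106 kb, and 3 of these formed a run of 14.6 kb. Tead1, the DNA-binding partner of the coactivators YAP and TAZ, held 8 in only 227 kb (35.2 per Mb of gene span), 3 of them within 3.12 kb. Camta1, a calmodulin-binding transcription activator, held 8 in 802 kb with no close neighbours.

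The place of the peaks in these genes differed. Bach2, which encodes a leucine zipper repressor known from lymphocytes, held 7 peaks that lay between 3.07 and 135 kb from its 5′ end in a gene of 348 kb, and 4 of them formed a run of 9.52 kb. In Zfhx3, a homeobox and zinc finger gene of 682 kb, the 7 peaks lay between 89.9 and 567 kb from the 5′ end. Etl4 held 8 peaks, all between 472 and 745 kb from the 5′ end of a 900-kb gene. In Frmd4a, a polarity scaffold gene, the 8 peaks began 281 kb into a 596-kb gene, and one lay over an inner start at 542 kb. Rnf220, a ubiquitin ligase gene, held 7 peaks between 90.5 and 224 kb from the 5′ end of its 226 kb.

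Receptor and matrix genes completed the 20 with the most peaks. Alk, a receptor tyrosine kinase gene, held 7 peaks in 736 kb, of 362 to 2055 bp. Tnr, which encodes the matrix protein tenascin-R, held 7 in 408 kb, Pappa, a protease that cleaves IGF-binding proteins, held 6 in 233 kb, and Lhfp held 6 in 220 kb. Bcas3 held 8 in 473 kb.

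The very longest genes held few peaks. Of the 10 longest, 5 held none, namely Ptprd (2271 kb), Lsamp (2197 kb), Csmd1 (1643 kb), Ctnna3 (1574 kb) and Robo2. A count of 0 allows up to 1.32 peaks per Mb of gene span in Ptprd, 1.37 in Lsamp, 1.83 in Csmd1 and 1.91 in Ctnna3. Dlg2, a synaptic scaffold gene of 1973 kb, held 1 peak of 249 bp. Lrp1b held 3 in 2058 kb, Fhit 3 in 1612 kb and Macrod2 4 in 1998 kb. Cntnap2 held 4 in 2241 kb, and all 4 lay in its last stretch, at 2142 to 2200 kb from the 5′ end. The 3 peaks of Fhit also lay late in the gene, at 1322, 1517 and 1564 kb from the 5′ end, whereas those of Macrod2 lay at 143, 258, 839 and 1940 kb.

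Density by length of the gene showed the same fall. Genes of 200 to 300 kb had 5.21 peaks per Mb of interior (95% Poisson interval 4.76 to 5.70), those of 300 to 500 kb 3.67 (3.33 to 4.04), those of 500 to 1000 kb 2.81 (2.49 to 3.16) and those of 1000 kb or more 1.60 (1.32 to 1.92). The share of genes with a peak went the other way across these classes, at 53.2%, 54.9%, 62.75% and 64.8% of 389, 304, 153 and 54 genes. The density in the longest class over that in the 200 to 300 kb class was 0.306 (0.247 to 0.376), and it was 0.303 to 0.361 under 4 other settings. No test was made of this ratio. Below 200 kb the densities were 3.63, 4.15, 4.70 and 4.395 per Mb for genes of up to 50, 50 to 100, 100 to 150 and 150 to 200 kb, so density was not ordered by length over the whole range. Across the 900 long genes the rank correlation of span with the number of peaks was 0.13 and with density -0.09. Genes are not independent replicates and longer genes offer more room, so these are descriptions.

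**Figure D2:**
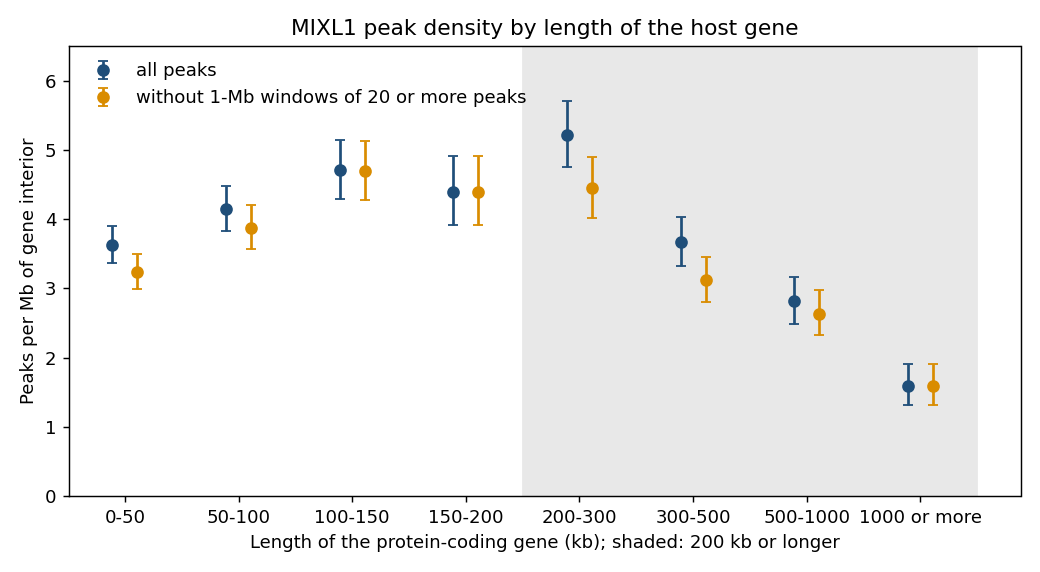
Peaks per Mb of gene interior for classes of gene length (kb), with 95% Poisson intervals, for all peaks (blue) and without 1-Mb windows that hold 20 or more peaks (orange). In the shaded classes of 200 kb or longer, density steps down to 1.60 per Mb in genes of 1000 kb or more.

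As 1 class, long genes carried fewer peaks per Mb than shorter genes and more than the space between genes. The interiors of long genes had 3.42 peaks per Mb (3.24 to 3.62) over 379 Mb, against 4.10 (3.92 to 4.27) in the interiors of shorter genes, where 2141 peaks lay. The ratio was 0.836 (0.780 to 0.896, adjusted p = 1.25e-06, two-sided exact binomial test given the territory, adjusted over 8 tests). Outside protein-coding genes 3784 peaks lay at 2.88 per Mb (2.79 to 2.98), which gave a ratio of long genes to outside of 1.19 (1.11 to 1.27, adjusted p = 1.10e-06, same exact test). Because peaks lie in clusters, these tests overstate how many independent sites there are. With a limit of 300 kb for a long gene, the ratio to the outside was 0.991 and no longer passed.

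Chromosomes gave a check that does not treat each peak as independent. Long genes were less dense than shorter genes on 14 of 18 chromosomes (exact two-sided sign test p = 0.0309, adjusted over both comparisons p = 0.0618). They were denser than the outside on 12 of 18 (exact sign test p = 0.238). Neither comparison passed the threshold after adjustment. Chromosome 17 had the highest density in long genes, at 12.8 per Mb, followed by chromosome 11 at 6.38 and chromosome 9 at 5.11, and chromosome 15 had the lowest, at 2.09. The ratio to shorter genes ran from 0.410 on chromosome 14 to 1.92 on chromosome 17.

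**Figure D3:**
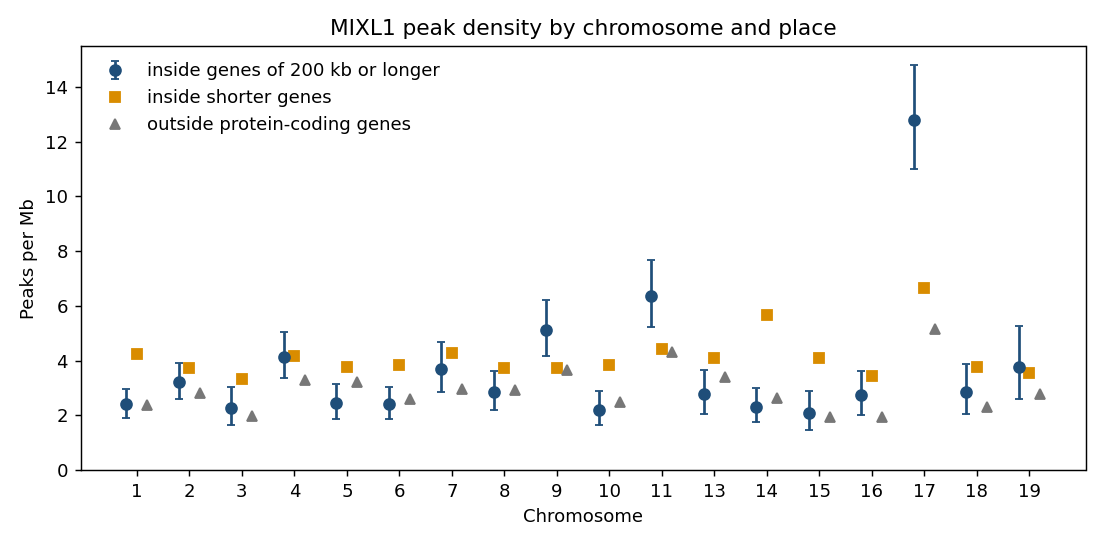
Peaks per Mb on each of the 18 autosomes inside genes of 200 kb or longer (blue, with 95% Poisson intervals), inside shorter genes (orange squares) and outside protein-coding genes (grey triangles). Long genes lie below shorter genes on 14 of 18 chromosomes, and chromosome 17 reaches 12.8 per Mb.

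Within long genes the peaks leaned towards the 3′ side of the midpoint. Strand was known for 664 of the 900 genes, which held 937 of the peaks. The 5′ side held 420 of them (44.8%, 95% Wilson interval 41.7 to 48.0%) at 2.95 per Mb, and the 3′ side held 517 at 3.63 per Mb. The ratio was 0.812 (0.713 to 0.926, adjusted p = 0.00407, exact binomial test), and it stayed past the threshold, at 0.700 to 0.848, under all 9 alternatives tried. This test counts each peak as independent although peaks lie in clusters, and it was not repeated by chromosome. The alternatives reuse peaks of the same list. In 5 equal parts of the gene from 5′ to 3′, without the genes Btbd9 and Dnah8, the densities were 2.80, 2.71, 3.04, 3.57 and 3.27 per Mb for 158, 155, 174, 204 and 185 peaks. The outer 10% on each side held 247 peaks at 3.32 per Mb, against 3.45 per Mb in the middle (ratio 0.963, 0.835 to 1.11, adjusted p = 0.688, exact binomial test), so no difference between the outer parts and the middle was detected.

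**Figure D4:**
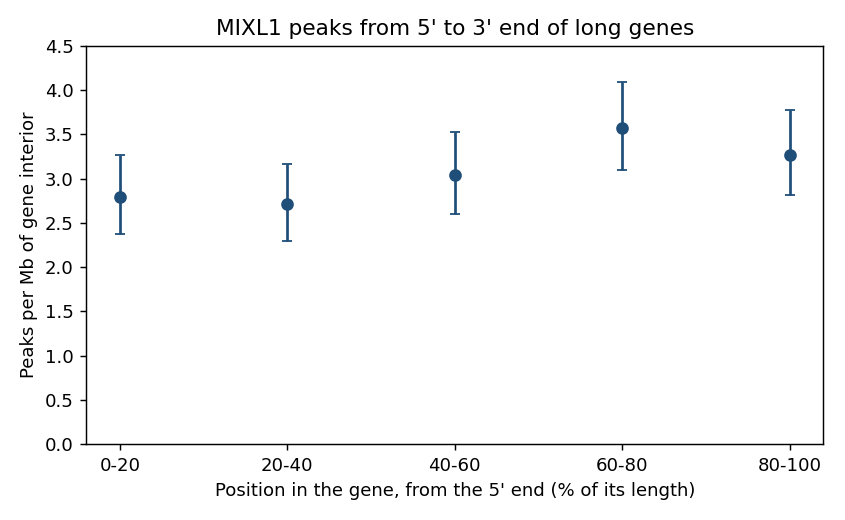
Peaks per Mb of interior in 5 equal parts of the gene from the 5′ to the 3′ end, with 95% Poisson intervals, for long genes of known strand without Btbd9 and Dnah8. The lowest value is 2.71 per Mb at 20 to 40% of the length, and the highest is 3.57 at 60 to 80%.

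The peaks in long genes were much like other peaks in width. Their median was 480 bp (quartiles 355 and 691), against 479 bp (347 and 718) in shorter genes and 482.5 bp (350.75 and 722.25) outside genes. Wide peaks of 1 kb or more were fewer, with 124 of 1298 (9.55%, 8.07 to 11.3%) in long genes, against 476 of 3784 (12.6%) outside genes (odds ratio 0.734, 0.596 to 0.904, adjusted p = 0.00652, two-sided Fisher's exact test). With a width limit of 2 kb or 700 bp this difference no longer passed (0.515 and 0.871). Against shorter genes, with 249 of 2141 (11.6%), the odds ratio was 0.803 (0.639 to 1.01, adjusted p = 0.0990, Fisher's exact test), which did not pass but did under 6 of 11 alternatives. The widest peak lay in Sik3, a salt-inducible kinase gene, and spanned 5441 bp at chr9:46132724-46138164, 123 kb from the 5′ end. The same gene held a second wide peak of 1896 bp. Arhgap24, a gene for a GTPase-activating protein of Rac, held one of 3173 bp, and Ttc28 one of 2637 bp. The rest of the 10 widest, of 1945 to 2183 bp, lay in Dnah8, Btbd9 (2 peaks), Alk, Etl4, Ptprt and Sntb1.

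Closeness of peaks depended on chromosome 17. Another peak lay within 10 kb of 336 peaks in long genes (25.9%), 514 in shorter genes (24.0%) and 1003 outside genes (26.5%). The odds ratio was 1.11 (0.943 to 1.296, adjusted p = 0.295) to shorter genes and 0.968 (0.839 to 1.12, adjusted p = 0.688) to the outside, both by Fisher's exact test. Without chromosome 17 the share was 19.0% in long genes, against 23.0% in shorter genes and 25.4% outside, with odds ratios of 0.784 and 0.690 that both passed. Other settings moved the comparison with shorter genes the other way, up to 1.34 among peaks wider than the median. Away from Btbd9 and Dnah8, the largest runs were of 4 peaks, in Cntnap5b over 7.78 kb, in Bach2 over 9.52 kb and in Pknox2 over 9.72 kb. The 4 peaks of Cntnap5b, a neurexin-family gene of 718 kb, were all it had. St3gal3, a sialyltransferase gene, held 3 peaks in 3.01 kb.

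Gene lists showed which kinds of long gene held peaks. The 12 lists hold 570 genes, of which 281 were long, and 11 long genes stand in a pair of lists. Counts are given beside those for all 900 long genes, of which 56.1% held a peak at 3.41 peaks per Mb of gene span, or 3.09 without Btbd9 and Dnah8. No list was tested, and lists differ in the span of their genes.

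Transcription factors of development had the highest density of the 12 lists. A peak lay in 38 of 50 long genes (76.0%), with 130 peaks in all, 6.28 per Mb of gene span (95% Poisson interval 5.25 to 7.46) and a median of 2 peaks per gene, against 1 for all long genes. In 20 of the 50 there were 3 or more. Besides those described above, Nfia and Sox5 held 6 each, Rora 5, and Foxp1, Klf12, Pbx3, Runx2 and Sox6 4 each. The E-protein genes Tcf4 and Tcf12 held 3 each, and Gli2 and Gli3, the zinc finger factors of Hedgehog signalling, 1 each. The 12 without a peak were Aff3, Erg, Etv6, Foxp2, Hivep3, Jazf1, Mitf, Thrb, Tox, Trps1, Zfp521 and Zfpm2. Members outside the 3 with the most peaks are named here after their counts were seen.

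Single peaks of these factors show how far the places differ. Pbx3, a TALE homeodomain gene of 201 kb, held peaks of 294, 515, 484 and 259 bp, and the nearest gene end lay 78.3, 89.4, 12.3 and 8.10 kb away. Runx2, the bone-forming Runt factor, held peaks of 1091, 664, 247 and 1139 bp, each 58.8 to 113 kb from a gene end. In Nfia, a nuclear factor I gene, the widest of 6 peaks measured 1270 bp and lay 11.9 kb from a gene end. The 6 peaks of Sox5, a SoxD factor gene, lay 101 to 423 kb from a gene end.

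Adhesion and guidance genes were near or below the density of all long genes. Axon guidance and immunoglobulin-family genes had a peak in 20 of 35 (57.1%) at 3.04 per Mb, with 19 of the 68 peaks in Slit3 and 6 in Ephb1, an ephrin receptor gene. Genes of synaptic adhesion had a peak in 13 of 17 (76.5%), but at 2.12 per Mb, and Tenm2 and Tenm4, which encode teneurins, held 5 each. Cadherins and catenins had a peak in 12 of 20 (60.0%) at 1.71 per Mb, with 5 in Cdh13 and 4 each in Cdh4 and Pard3b. Cdh2, the N-cadherin gene that mesoderm switches on as it leaves the streak, held 0.

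Channels, matrix and signalling genes held fewer. Ion channels and glutamate receptors had a peak in 19 of 45 (42.2%) at 1.58 per Mb, with 5 in Kcnip1 and 4 each in Grik3 and Grik4. Matrix and integrin genes had one in 8 of 27 (29.6%) at 1.55 per Mb, and Tnr alone held 7 of the 18. Phosphodiesterases and cyclic nucleotide genes had one in 7 of 16 (43.75%) at 2.04 per Mb, led by Pde4d with 5 in 1302 kb.

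The lists of signalling genes were short at this length. The FGF, ERK and receptor tyrosine kinase list had a peak in 12 of 19 genes (63.2%) at 1.90 per Mb. It was led by Alk with 7, Ptprt, a receptor tyrosine phosphatase gene, with 4, and Igf1r with 3. The Wnt list had a peak in 4 of 6 genes at 1.06 per Mb, with 6 peaks in all. Of these, 3 lay in Lrp1b, which also stands in the list of fragile-site genes, and 1 each in Prickle2, Ror1 and Gpc6. TGF-beta, Nodal and BMP genes had one in 0 of 5, namely Bmper, Bmpr1b, Ltbp1, Pcsk5 and Tmeff2, with a 95% Poisson limit of 2.20 per Mb over their 1.67 Mb. With 5 and 6 genes, these lists say little about pathways whose other genes are shorter.

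Long genes of fragile sites and genome maintenance had a peak in 15 of 18 (83.3%), yet at 1.82 per Mb, with a median span of 1217 kb against 327 kb for all long genes. Csmd2, Dab1, Macrod2 and Pard3b held 4 each.

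**Figure D5:**
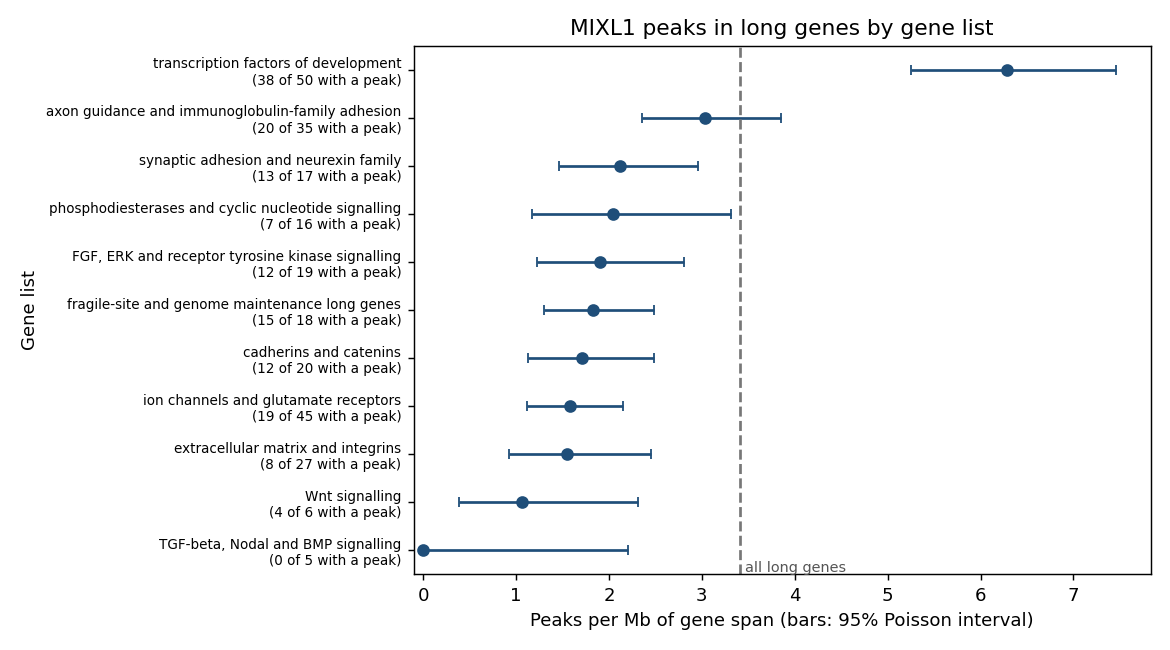
Peaks per Mb of gene span for the long genes of the lists described here, with 95% Poisson intervals, and the number of genes with a peak in brackets. The dashed line is the density of all 900 long genes, 3.41 per Mb. Transcription factors of development lie highest at 6.28 per Mb, and the list of 5 TGF-beta, Nodal and BMP genes has no peak.

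Some microRNA hairpins inside long genes lay close to a peak. Of 68 hairpins, 7 lay within 10 kb of one, a count with no comparison. The nearest were Mir6353 in Pid1 at 0.623 kb, Mir218-2 in Slit3 at 1.98 kb and Mir6398 in Macf1 at 2.46 kb. The others were Mir488 in Astn1, Mir199a-2 in Dnm3, Mir6391 in Abcc4 and Mir5623 in Atrnl1, at 4.11 to 9.48 kb.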

How the data were processed

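The authors deposited 1 list with the chromosome, start and end position of each peak, the only values used, and no score, count or value per library. The submitters' processing notes name mm10 and the tools MACS2, SAMtools, Bowtie2 and CASAVA 1.8.2. How the peak threshold was set, how input was used and whether replicates were pooled was not given in the sources used here. Both groups of 2 libraries therefore enter only through this list. Depth is unknown.

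Peaks were placed by their centre among 19882 protein-coding genes of the RefSeq GRCm38.p6 table on 18 autosomes, without 442 genes listed in the first 3 Mb of a chromosome. Territory ran from 3 Mb to the last gene end, and assembly gaps were not removed. Exons were not used. Positions are 1-based. Strand came from the RefSeq promoter table, which covered 664 of the 900 long genes and in which entries on chromosome 18 were not used. Densities were compared by two-sided exact binomial tests given the territory, with Poisson 95% intervals, and shares by Fisher's exact test (two-sided), with Wilson 95% intervals. Benjamini-Hochberg adjustment covered 8 tests, with a threshold of 0.05. A count of 0 in a single gene was read as up to 3 peaks. For a gene list with 0 peaks the limit is the upper end of the two-sided 95% Poisson interval, so these limits are not set alike. The density test of long against shorter genes was checked on 40 simulated lists. Their peaks were placed independently, so this check does not cover clustered peaks such as those of the real list. Genome sequence at peaks was not used, so the planned motif comparison was replaced by a description of promoter windows.

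The genes named are the 20 with the most peaks, the 10 densest with 3 or more peaks, the 10 longest, the hosts of the 10 widest peaks, up to 3 per list and the 5 longest without a peak, and any other gene is named after its value was seen. One list and some genes that this rule takes are not reported here. The set of peaks and the gene lists were chosen with earlier results of these data known. Alternatives changed the length limit, the distance from gene ends, the peaks kept, the chromosomes, dense windows, predicted genes and the thresholds. Python 3.11.15, numpy 2.4.6, pandas 2.3.3, scipy 1.17.1, statsmodels 0.14.6 and matplotlib 3.10.9 were used.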

Additional observations from a re-analysis of the deposited data

Results flagged for a closer look

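Peaks inside long genes of chromosomes 12 and X lay outside the set described above. On chromosome 12, 193 peaks lay in the interiors of long genes, at 10.64 per Mb (95% Poisson interval 9.19 to 12.25), and 36 of 45 genes held one. Rad51b, a gene of recombination repair, held the most, at 21. On chromosome X, 8 peaks lay there, at 0.4014 per Mb (0.173 to 0.791), in 8 of 45 genes with 1 each. Both chromosomes are given because no comparison above uses them. No test was made of either value.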

How the results depend on the processing

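The lower density in long than in shorter genes kept its direction and its call under all 9 alternatives (ratios 0.670 to 0.883), as did the excess on the 3′ side (5′ over 3′ 0.700 to 0.848). These calls rest on counts of peaks, and the exact sign test of long against shorter genes over chromosomes did not pass (adjusted p = 0.0618). The ratio to the outside kept direction and call under 8 of 9 (1.10 to 1.25) and was 0.991 with a limit of 300 kb, without a call. The share of wide peaks against shorter genes passed with a limit of 300 kb (odds ratio 0.740), 5 kb from gene ends (0.751), without chromosome 17 (0.716), without 1-Mb windows of 20 or more peaks (0.717), with 1 peak per run (0.777) and at 2 kb width (0.363). Against the outside it no longer passed at 2 kb (0.515) or 700 bp (0.871).

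The share with a close neighbour turned round most often. Against shorter genes the odds ratio was 0.854 with 300 kb, 0.784 without chromosome 17 (which passed) and 0.832 without dense windows, and it passed in the other direction 5 kb from gene ends (1.22), among peaks wider than the median (1.34) and without predicted genes (1.24). Against the outside it was 1.00 at 5 kb from gene ends, 1.21 among wider peaks, 1.05 at 50 kb and 1.02 at 5 kb distance, none of which passed, and it passed with 300 kb (0.807), without chromosome 17 (0.690) and without dense windows (0.795). The outer parts over the middle gave 1.08 with 300 kb and 1.01 with an outer 25%, neither of which passed. The causes were not tested. The comparisons at transcript starts and by length class, with their alternatives, were chosen after seeing the data.

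No paired analysis was possible because 1 list holds all peaks and no value belongs to a library, and no replicate was left out. The unknown depth limits what an absent peak shows.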
